A study of Homo sapiens with 12 samples.

Results

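The genes described here are 42 interferon-stimulated genes and interferon regulatory factors, chosen by name from what is known of the interferon response. All 42 had a row among the 19504 named genes of the count table, and all 42 were among the 12392 genes with enough counts to be tested. They were followed across 12 bulk RNA libraries from a pair of human acute myeloid leukaemia cell lines, in a study of FLT3-ITD, an internal tandem duplication that leaves the receptor kinase FLT3 switched on. MV4-11 carries that duplication, and OCI-AML3, whose FLT3 is not duplicated, was the other line. Both were grown in RPMI-1640 medium with fetal bovine serum and exposed for 24 h to 5 nM AC220 (quizartinib, an inhibitor of FLT3) or to its solvent DMSO, with 3 libraries in each of the 4 groups: MV4-11 AC220, MV4-11 DMSO, OCI-AML3 AC220 and OCI-AML3 DMSO. No interferon was given in any group. Each kind of leukaemia is represented by 1 cell line, so a difference between the lines cannot be told apart from a difference that goes with FLT3.

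Type I interferons bind a receptor that, through the kinases JAK1 and TYK2, brings STAT2 together with IRF9 in a complex, ISGF3. It enters the nucleus and binds a short promoter element, the interferon-stimulated response element (ISRE), in front of genes that block viral replication, sense foreign RNA or feed back on the pathway. Interferon gamma acts through another element, GAS, and many of the same genes are also transcribed at a low level without added interferon.

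Promoter stretches of 10 genes that changed under AC220 in MV4-11 are shown here because the ISRE is what many of the 42 genes have in common and because genes of both directions carry it. They are a selection. IFI44, IFI27, HERC5 and IFIH1, which fell, and SAMD9, which rose, also carry the core and are not shown. In the RefSeq promoter sequences of GRCh38.p14, which reach from 250 bases before to 50 bases after each annotated start, 33 of the 42 genes were found. The ISRE core was searched on both strands, as TTTC, any 2 bases and TTTC again, which on the other strand reads GAAA, any 2 bases and GAAA, and was present for 22 of the 33 genes (66.7%), against 1195 of all 27305 genes (4.38%). Among the matched genes that fell, rose and did not pass the test in MV4-11, it was present for 10 of 14, 5 of 9 and 7 of 10. The GAS core, TTCNNNGAA, which reads the same on both strands and can overlap an ISRE core in part, was present for 11 of 33 genes (33.3%), against 2560 of all genes (9.38%), and for 3 of the 14 that fell, 5 of the 9 that rose and 3 of the remaining 10. These are matches of letters and not tested sites. Each stretch below has 30 bases and is read in the direction of transcription, with each ISRE core in capitals. The first 6 genes fell and the last 4 rose under AC220 in MV4-11.
IFIT1 (chr10:89392504-89392533, plus strand): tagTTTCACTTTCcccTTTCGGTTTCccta
IFIT3 (chr10:89327865-89327894, plus strand): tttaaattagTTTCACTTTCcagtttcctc
IFIT5 (chr10:89414538-89414567, plus strand): cttacgtttagTTTCGATTTCttaagtttc
OAS3 (chr12:112938444-112938473, plus strand): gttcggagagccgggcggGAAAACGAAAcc
ISG15 (chr1:1013377-1013406, plus strand): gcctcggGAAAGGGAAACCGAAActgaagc
IFI44L (chr1:78620365-78620394, plus strand): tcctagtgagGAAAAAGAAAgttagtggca
IFITM1 (chr11:313990-314019, plus strand): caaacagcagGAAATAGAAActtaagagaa
IFITM3 (chr11:320884-320913, minus strand): gGAAAAGGAAActgttgaGAAACCGAAAct
ISG20 (chr15:88638937-88638966, plus strand): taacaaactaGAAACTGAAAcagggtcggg
BST2 (chr19:17405738-17405767, minus strand): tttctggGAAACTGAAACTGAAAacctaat
IFIT1 and IFITM3 held 2 separate cores in the stretch, and in ISG15 and BST2 2 cores overlapped.

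The libraries held between 10877198 and 16918761 counted reads, and levels are given as CPM, the counts of a gene scaled to a common library total, after TMM scaling. QuantSeq reads the ends of transcripts, so CPM does not grow with gene length, and levels of different genes are set side by side on that scale. Of the myeloid marker genes, 10 of 10 had counts in every group, with a summed level of 684 to 710 CPM in MV4-11 AC220 and 409 to 434 CPM in MV4-11 DMSO, and of 640 to 700 CPM in OCI-AML3 AC220 and 612 to 625 CPM in OCI-AML3 DMSO. In MV4-11, 7 of these 10 rose and 1 fell under AC220, beside 31.5% of all tested genes that rose and 26.9% that fell. Their part in the results below was not tested. The lymphoid genes CD3E and CD2, the erythroid genes HBB and HBA1, and EPCAM and COL3A1 had 0 counts in all 12 libraries, while NCAM1 had 2957 to 6420 counts in each group. In bulk RNA, fewer cells that express a gene and less of its RNA per cell cannot be told apart. The labels do not say that replicates came from separate cultures, so a p-value is set against the variation among the 3 libraries of a group, which can be technical alone.

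Without the inhibitor, most interferon-stimulated genes were lower in MV4-11 than in OCI-AML3. Under DMSO, 33 of the 42 were lower in MV4-11, 3 were higher and 6 did not pass the test, with edgeR's quasi-likelihood test and Benjamini-Hochberg adjustment over all tested genes at 0.05. Of all 12392 tested genes, 33.4% were lower and 32.1% higher in this comparison. The median log2 difference (MV4-11 minus OCI-AML3) of the 42 genes was -1.49, beside 0.01 for all tested genes, and 30 were lower by at least 2-fold. In 33 of the 42 genes the 3 MV4-11 DMSO libraries all lay below the 3 OCI-AML3 DMSO libraries and in 5 all lay above them, where 36.5% and 35.4% of all tested genes did so. The level plot of all 42 genes shows this difference and the groups' replicates.

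**Figure D1:**
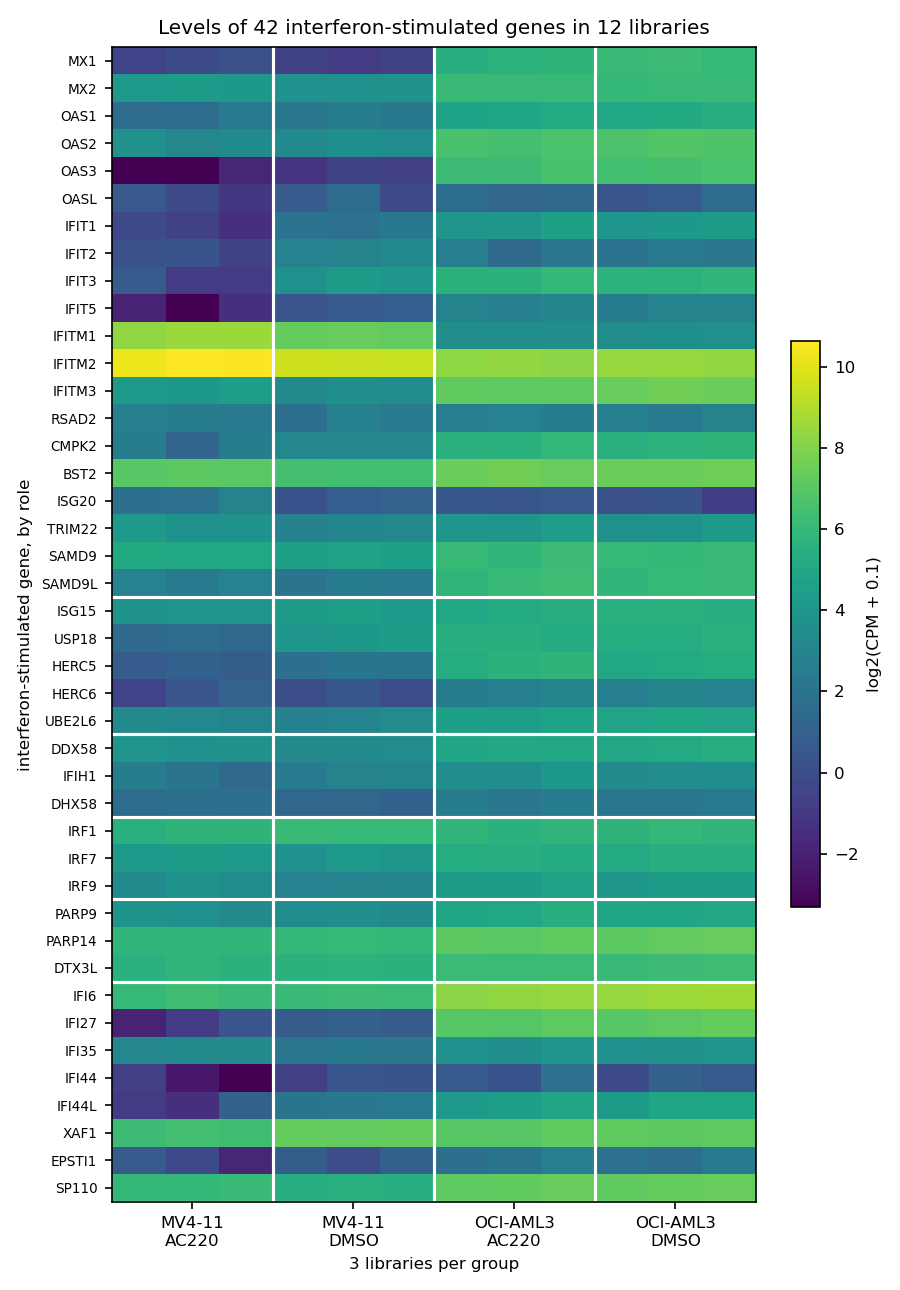
Level of each of the 42 genes in each of the 12 libraries, as log2(CPM + 0.1), with genes as horizontal rows ordered by role and libraries as columns in the 4 groups. Lighter colours are higher levels. OAS3, MX1 and IFI27 are dark in the MV4-11 libraries and light in the OCI-AML3 libraries, and IFITM1 and IFITM2 are lighter in the MV4-11 libraries.

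The widest gaps between the lines were those of the antiviral effectors OAS3 and MX1. OAS3, an oligoadenylate synthetase that makes the activator of RNase L, had 0.348, 0.577 and 0.514 CPM in MV4-11 DMSO, against 84.3, 93.7 and 104 CPM in OCI-AML3 DMSO. MX1, a dynamin-like GTPase that traps viral nucleoproteins, had 0.58, 0.449 and 0.578 CPM in MV4-11 DMSO, against 66.7, 74.8 and 65.2 CPM in OCI-AML3 DMSO. Both genes were near the floor of detection in MV4-11 and among the well-expressed genes of OCI-AML3, with no overlap between libraries. The log2 difference was -7.60 for OAS3 (SE 0.197, adjusted p = 3.61e-21), a 196-fold lower level, and -6.98 for MX1 (SE 0.163, adjusted p = 1.18e-24), a 129-fold lower one. IFI27, a small membrane protein of mitochondria and the nuclear envelope, followed at -6.41 (SE 0.162, adjusted p = 2.55e-19), with means of 1.66 ± 0.177 CPM in MV4-11 DMSO and 142 ± 15.9 CPM in OCI-AML3 DMSO (SD, n = 3 each). SAMD9L, a translational repressor known for its inherited variants in myeloid disease, had 4, 5.71 and 5.53 CPM in MV4-11 DMSO, against 57.8, 65.5 and 71.3 CPM in OCI-AML3 DMSO. Its neighbour SAMD9 was lower by 1.43 on the log2 scale. OAS3, MX1 and IFI44 would not have passed the low-count filter in the MV4-11 libraries alone, where 39 of the 42 did, and entered through OCI-AML3.

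The IFITM genes, whose products sit in membranes and hinder the fusion of viruses with the cell, did not share 1 direction between the lines. IFITM1, found largely at the cell surface, had 162, 170 and 152 CPM in MV4-11 DMSO, against 11.9, 12.4 and 12.6 CPM in OCI-AML3 DMSO, a log2 difference of 3.71 (SE 0.0858, adjusted p = 1.04e-24). IFITM3, found in endosomes, had 9.57, 12.3 and 10.5 CPM in MV4-11 DMSO, against 165, 191 and 183 CPM in OCI-AML3 DMSO, a log2 difference of -4.06 (SE 0.0963, adjusted p = 1.61e-24). IFITM1 was thus the higher of the pair in MV4-11 and IFITM3 in OCI-AML3. IFITM2 averaged 726 ± 18.6 CPM in MV4-11 DMSO and 347 ± 16.4 CPM in OCI-AML3 DMSO (SD, n = 3 each), a log2 difference of 1.06 (SE 0.0738, adjusted p = 3.92e-13). The 3 genes are similar in sequence and how the authors treated reads with several positions was not given, so reads may be divided among them or lost. IFIT2, an RNA-binding tetratricopeptide protein, was the third gene higher in MV4-11, with 7.19, 7.5 and 9.13 CPM in MV4-11 DMSO against 3.88, 5.47 and 4.62 CPM in OCI-AML3 DMSO (log2 difference 0.77, SE 0.227, adjusted p = 0.00425).

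All 5 genes of the ISG15 system were lower in MV4-11 under DMSO. The counts in this paragraph stand beside 33.4% of all tested genes that were lower and 32.1% that were higher. ISG15, the ubiquitin-like modifier itself, averaged 21.2 ± 2.35 CPM in MV4-11 DMSO and 44 ± 2.85 CPM in OCI-AML3 DMSO (SD, n = 3 each; log2 difference -1.06, SE 0.105, adjusted p = 5.25e-10). HERC5, the human ISG15 ligase, was lower by 9.34-fold, and USP18, which removes ISG15 and restrains the type I interferon receptor, by 2.37-fold. All 3 RNA sensors, DDX58 (RIG-I), IFIH1 (MDA5) and DHX58 (LGP2), were lower in MV4-11, with log2 differences of -1.84, -0.76 and -1.07. Among the regulators, IRF7, which drives interferon genes, and IRF9, the DNA-binding part of ISGF3, were lower at -1.37 (SE 0.113, adjusted p = 1.04e-11) and -1.38 (SE 0.146, adjusted p = 1.98e-09). IRF1, an activator that responds chiefly to interferon gamma, had 66.6, 64.9 and 64.3 CPM in MV4-11 DMSO and 53, 62.7 and 56.3 CPM in OCI-AML3 DMSO, which did not pass the test (log2 difference 0.19, SE 0.0855, adjusted p = 0.0553). PARP9 and DTX3L, which form a ubiquitin ligase together, and PARP14 were lower too, with DTX3L the smallest of these differences at -0.55. RSAD2 (viperin), an enzyme that makes a chain-terminating nucleotide, did not pass the test (log2 difference -0.37, SE 0.215, adjusted p = 0.133), nor did OASL, ISG20, IFI44 or XAF1.

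**Figure D2:**
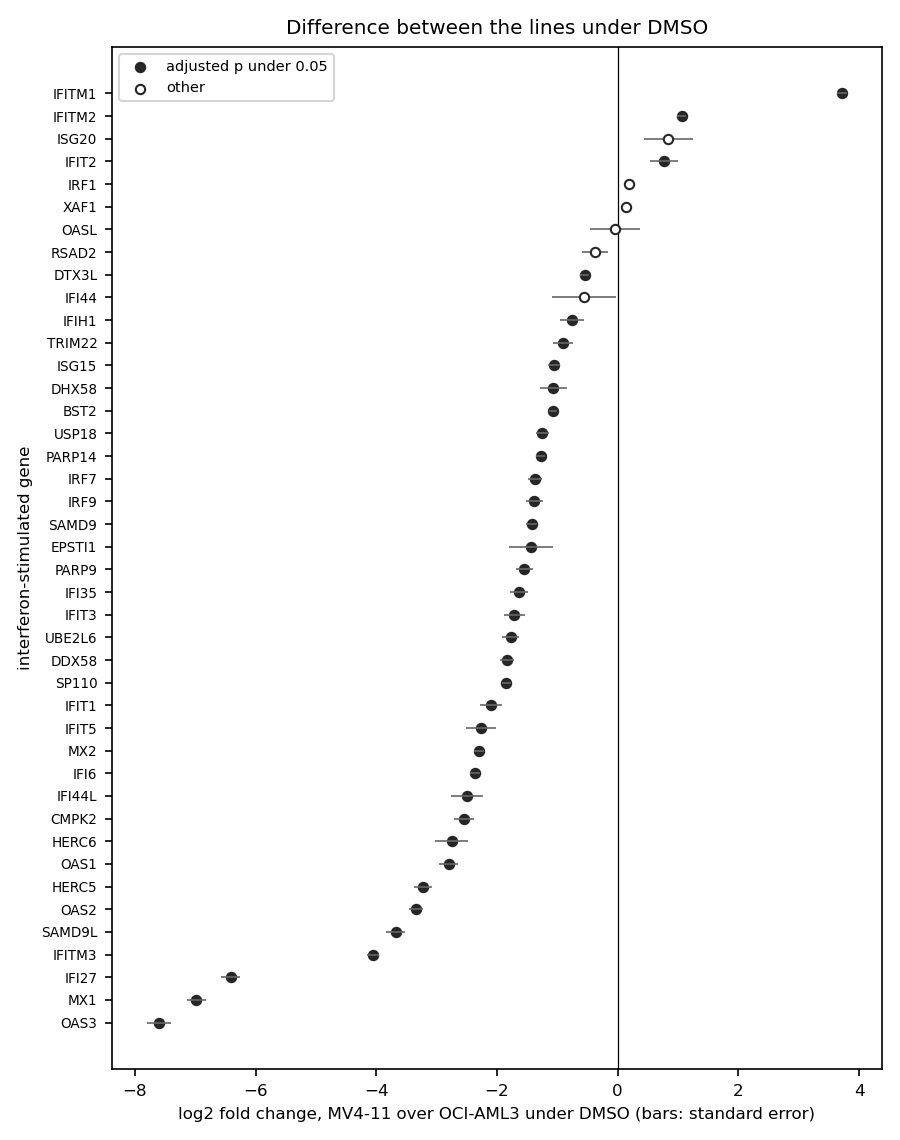
Log2 difference of each gene between MV4-11 and OCI-AML3 under DMSO (MV4-11 minus OCI-AML3), with bars of 1 SE, genes ordered by the difference with the highest at the top. Filled points passed the test. OAS3 at -7.60, MX1 at -6.98 and IFI27 at -6.41 stand at the low end and IFITM1 at 3.71 at the high end.

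In MV4-11, 24 h of AC220 moved the genes in both directions, and the IFIT genes fell furthest. Of the 42, 12 rose, 16 fell and 14 did not pass the test, where 31.5% of all tested genes rose and 26.9% fell. That is 28 called genes (66.7%) beside 58.3% of all genes, so the share called lay close to that of the transcriptome. The median log2 fold change (AC220 over DMSO) of the 42 was -0.01, beside 0.07 for all tested genes. At 2-fold or more, 10 fell and 2 rose, where 8.74% and 9.73% of all tested genes did. In 14 genes the 3 AC220 libraries lay above the 3 DMSO libraries and in 14 below them, where 33.5% and 28.9% of all tested genes did so.

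The 4 IFIT genes measured here encode proteins that bind viral RNA, and all 4 fell. IFIT3, which stabilises the IFIT1 complex, had 1.52, 0.465 and 0.454 CPM in MV4-11 AC220, against 12.6, 20.8 and 16.1 CPM in MV4-11 DMSO. IFIT2 had 0.987, 1.12 and 0.545 CPM in MV4-11 AC220, against 7.19, 7.5 and 9.13 CPM in MV4-11 DMSO. IFIT1, which binds RNA caps that lack ribose methylation, had 0.759, 0.558 and 0.272 CPM in MV4-11 AC220, against 3.88, 3.53 and 4.88 CPM in MV4-11 DMSO. The treated and control libraries were far apart in each of these genes, and every treated library was below 2 CPM. IFIT5, which binds RNA with a triphosphate end, had 0.152, 0 and 0.272 CPM in MV4-11 AC220, against 1.16, 1.48 and 1.67 CPM in MV4-11 DMSO. The log2 fold changes were -4.25 for IFIT3 (SE 0.313, adjusted p = 1.33e-08), a 20.3-fold lower level, and -3.24 for IFIT5 (SE 0.519, adjusted p = 4.15e-06), a 10.2-fold lower one. For IFIT2 the change was -3.15 (SE 0.303, adjusted p = 4.23e-10) and for IFIT1 -2.89 (SE 0.329, adjusted p = 1.09e-08). Their promoter stretches shown above for IFIT1, IFIT3 and IFIT5 each hold an ISRE core.

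The feedback gene USP18 fell with the smallest SE among the genes that fell by 2-fold or more. USP18 had 2.58, 2.98 and 2.54 CPM in MV4-11 AC220, against 15.8, 17.3 and 19.9 CPM in MV4-11 DMSO. The groups were wide apart, with a log2 fold change of -2.71 (SE 0.15, adjusted p = 1.87e-15) and a 6.54-fold lower level. HERC5 fell by 1.17 on the log2 scale (SE 0.227, adjusted p = 6.47e-05), and ISG15 had 13.6, 15.2 and 15.2 CPM in MV4-11 AC220, against 21.1, 23.5 and 18.8 CPM in MV4-11 DMSO. The modifier's treated libraries all lay below its controls (log2 fold change -0.53, SE 0.116, adjusted p = 2.4e-04). UBE2L6, the conjugating enzyme for ISG15, and HERC6, its main ligase in the mouse, did not pass the test, at 0.09 and 0.23.

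**Figure D3:**
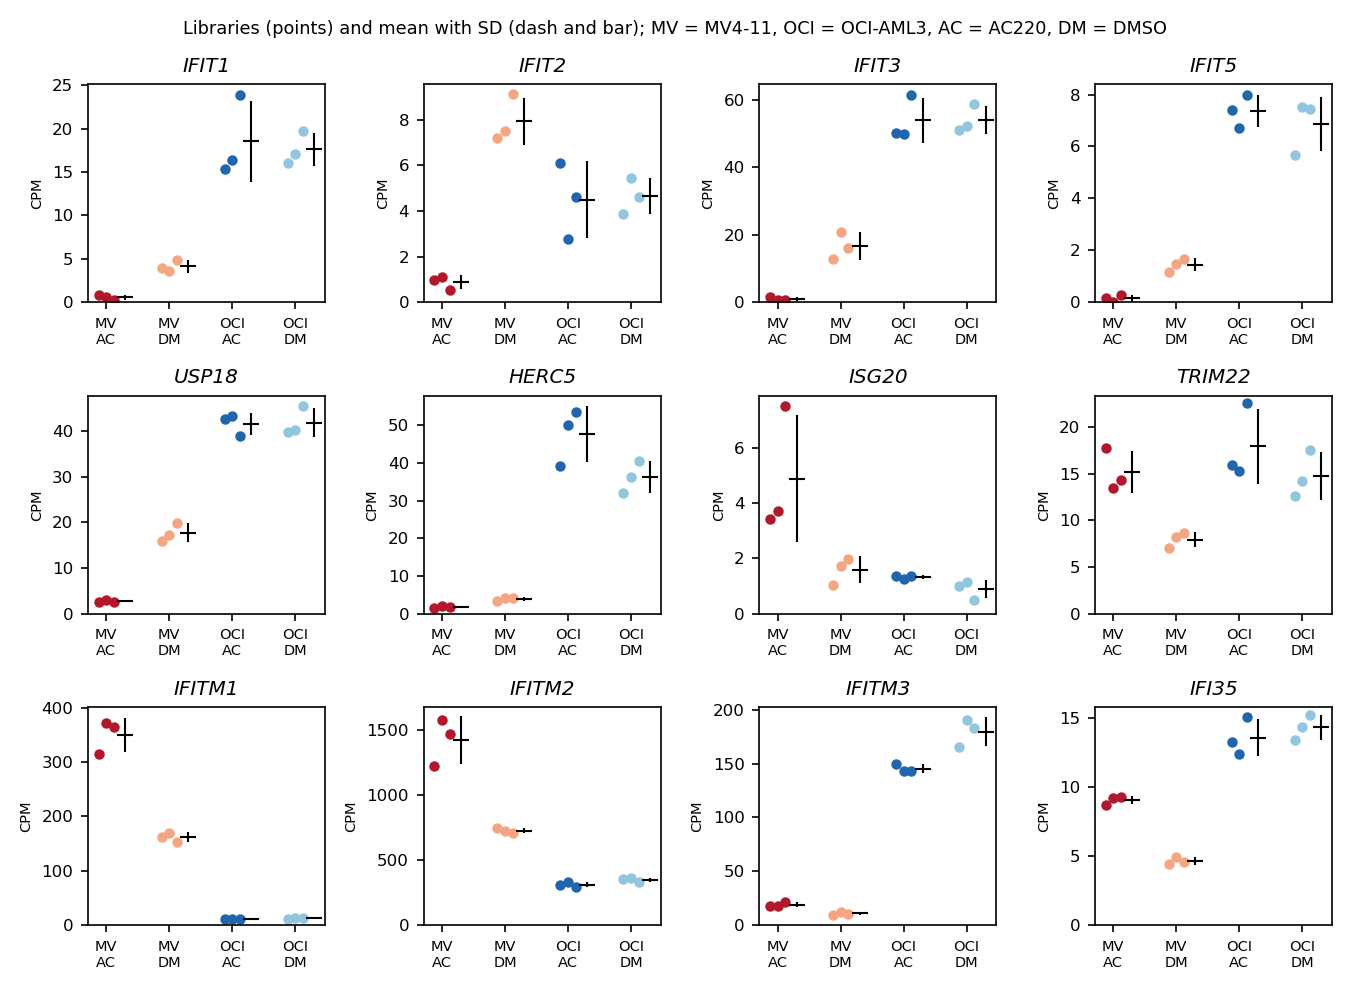
CPM in each library (points) with the mean and SD (dash and bar) for 12 of the genes, on linear axes that start at 0, with AC220 left of DMSO within each line. IFIT3, IFIT2, IFIT1 and USP18 are low in MV4-11 AC220 and have overlapping AC220 and DMSO libraries in OCI-AML3, while IFITM1 and IFITM2 are higher in MV4-11 AC220.

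Other genes that fell were sparse in MV4-11, and their values are less precise. IFI44L, which dampens interferon responses, had 0.456, 0.279 and 1.82 CPM in MV4-11 AC220, against 4.17, 4.62 and 5.14 CPM in MV4-11 DMSO (log2 fold change -2.46, SE 0.462, adjusted p = 4.45e-04). The treated libraries spread widely but stayed below the controls. OAS3 had 2 counts in all over the 3 MV4-11 AC220 libraries and 23 over the 3 MV4-11 DMSO libraries, a ratio of 7.93 with a 95% interval of 2.05 to 72.6 that covers counting error only (log2 fold change -2.87, SE 0.834, adjusted p = 0.00486). IFI44, the neighbour of IFI44L, had 0.532, 0.093 and 0 CPM in MV4-11 AC220, against 0.522, 1.22 and 1.09 CPM in MV4-11 DMSO (log2 fold change -2.00, SE 0.759, adjusted p = 0.0272), and its groups overlapped. Its call was lost without AC220 replicate 2 (adjusted p = 0.102) or 3 (0.0916) or DMSO replicate 2 (0.084) or 3 (0.0677). IFI27 had 0.152, 0.465 and 1.18 CPM in MV4-11 AC220, against 1.57, 1.86 and 1.54 CPM in MV4-11 DMSO. Its treated libraries held 2, 5 and 13 counts, and its log2 fold change of -1.51 (SE 0.386, adjusted p = 0.00198) ran between -2.51 and -0.99 over the alternatives, all of them called.

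Better-measured falls were smaller. XAF1, an antagonist of the apoptosis inhibitor XIAP and the most abundant gene that fell, had 74.5, 88.9 and 82.1 CPM in MV4-11 AC220, against 160, 154 and 160 CPM in MV4-11 DMSO. Its groups did not overlap, and its log2 fold change was -0.95 (SE 0.0737, adjusted p = 3.97e-12). CMPK2, a mitochondrial nucleotide kinase encoded beside RSAD2, fell by 0.93, while RSAD2 averaged 5.89 ± 0.68 CPM in MV4-11 AC220 and 5.08 ± 1.78 CPM in MV4-11 DMSO (SD, n = 3 each) and did not pass the test (log2 fold change 0.22, SE 0.221, adjusted p = 0.398). IRF1 fell, with 45.8, 54.3 and 53.2 CPM in MV4-11 AC220 and 66.6, 64.9 and 64.3 CPM in MV4-11 DMSO (log2 fold change -0.36, SE 0.0868, adjusted p = 8.71e-04). The sensor IFIH1 (-0.67, adjusted p = 0.0145) and the synthetase OAS1 (-0.48, adjusted p = 0.0457) completed the 16. The call of IFIH1 was lost without AC220 replicate 3 (adjusted p = 0.0684) or DMSO replicate 3 (0.0598). The call of OAS1 was lost under 9 of 20 settings, among them without MV4-11 AC220 replicate 1 (adjusted p = 0.204) or 2 (0.186), MV4-11 DMSO replicate 2 (0.151) or 3 (0.0601), OCI-AML3 AC220 replicate 2 (0.0515) or OCI-AML3 DMSO replicate 2 (0.0528).

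The genes that rose in MV4-11 were led in abundance by IFITM2 and IFITM1. IFITM1 had 314, 372 and 365 CPM in MV4-11 AC220, against 162, 170 and 152 CPM in MV4-11 DMSO. IFITM2, the most abundant of the 42 genes in MV4-11, had 1220, 1580 and 1470 CPM in MV4-11 AC220, against 745, 724 and 708 CPM in MV4-11 DMSO. IFITM3 had 18.1, 17.4 and 21.3 CPM in MV4-11 AC220, against 9.57, 12.3 and 10.5 CPM in MV4-11 DMSO. All 3 were higher in every treated library than in any control library, by log2 fold changes of 1.12 (SE 0.0693, adjusted p = 2.44e-14), 0.97 (SE 0.0731, adjusted p = 3.66e-12) and 0.81 (SE 0.106, adjusted p = 1.5e-07). Together they made up 71.3% of the summed level of the 42 genes in MV4-11 AC220 and 53.6% in MV4-11 DMSO. The other 39 genes summed to 706 to 745 CPM in MV4-11 AC220 and 754 to 797 CPM in MV4-11 DMSO.

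ISG20, an exonuclease, had the largest rise, with 3.42, 3.72 and 7.53 CPM in MV4-11 AC220 against 1.04, 1.73 and 1.99 CPM in MV4-11 DMSO (log2 fold change 1.62, SE 0.329, adjusted p = 1.12e-04). BST2 (tetherin), which holds budding viruses at the cell surface, had 129, 138 and 131 CPM in MV4-11 AC220, against 92.5, 84.6 and 85.5 CPM in MV4-11 DMSO (log2 fold change 0.60, SE 0.0689, adjusted p = 1.48e-08). TRIM22, an antiviral ubiquitin ligase, rose by 0.94 on the log2 scale (SE 0.166, adjusted p = 1.83e-05) and IFI35 by 0.97 (SE 0.157, adjusted p = 5.05e-06). IRF9 had 9.95, 14.5 and 10.8 CPM in MV4-11 AC220, against 7.19, 7.31 and 7.71 CPM in MV4-11 DMSO (log2 fold change 0.66, SE 0.155, adjusted p = 5.64e-04). IRF9 RNA was higher in all 3 treated libraries, and the RNA of the IFIT genes was lower. The IRF9 protein and ISGF3 were not measured. SP110, a nuclear body protein, DDX58, SAMD9 and MX2 rose by 0.56, 0.52, 0.44 and 0.44 on the log2 scale. Among genes that did not pass the test, IRF7 had a log2 fold change of 0.26 (SE 0.121, adjusted p = 0.0685) and MX1, with 28 counts over the 3 MV4-11 AC220 libraries and 26 over the 3 MV4-11 DMSO libraries, 0.57 (SE 0.351, adjusted p = 0.2). MX1 was called in MV4-11 with limma on the authors' normalised values (adjusted p = 0.00301).

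By role, the 20 antiviral effectors were divided, with 8 that rose, 7 that fell and 5 that did not pass the test (median log2 fold change 0.30), beside 31.5% that rose and 26.9% that fell of all tested genes. Of the 5 genes of the ISG15 system, 0 rose and 3 fell. The 3 RNA sensors went 1 up (DDX58), 1 down (IFIH1) and 1 not called (DHX58), as did the 3 regulatory factors IRF9, IRF1 and IRF7. None of PARP9, PARP14 and DTX3L passed the test in edgeR's quasi-likelihood fit over all 12 libraries, and 0 of the 3 reached an unadjusted p under 0.05. With the MV4-11 libraries fitted alone, PARP14 was called lower (log2 fold change -0.18, adjusted p = 0.0427). Of the 8 other induced genes 2 rose and 4 fell, with a median of -0.87.

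In OCI-AML3 the same exposure left nearly all of the genes without a call. HERC5 rose, MX1 and IFITM3 fell, and 39 did not pass the test, where 3.44% of all tested genes rose and 0.508% fell. That is 3 of 42 genes (7.14%) beside 3.95% of all genes. An unadjusted p under 0.05 in edgeR's test was reached by 7 of the 42, beside 2574 of all 12392 tested genes. MX1 had 45, 51 and 52.8 CPM in OCI-AML3 AC220, against 66.7, 74.8 and 65.2 CPM in OCI-AML3 DMSO, a fall without overlap (log2 fold change -0.47, SE 0.0928, adjusted p = 0.00808). IFITM3 had 150, 143 and 143 CPM in OCI-AML3 AC220, against 165, 191 and 183 CPM in OCI-AML3 DMSO (log2 fold change -0.30, SE 0.0786, adjusted p = 0.028). HERC5 had 39.2, 50.2 and 53.5 CPM in OCI-AML3 AC220, against 32.1, 36.4 and 40.4 CPM in OCI-AML3 DMSO, with overlap (log2 fold change 0.40, SE 0.114, adjusted p = 0.0453). The 3 AC220 libraries lay above the DMSO libraries in 1 gene and below in 6, where 14.2% and 9.72% of all tested genes did so. None of the 42 changed by 2-fold or more, where 0.21% of all tested genes rose and 0.00807% fell by that much.

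The genes with the clearest falls in MV4-11 had overlapping libraries in OCI-AML3. IFIT3 averaged 53.8 ± 6.55 CPM in OCI-AML3 AC220 and 53.9 ± 4.17 CPM in OCI-AML3 DMSO, and USP18 41.6 ± 2.41 CPM in OCI-AML3 AC220 and 41.8 ± 3.21 CPM in OCI-AML3 DMSO (SD, n = 3 each). Their log2 fold changes were -0.00 (SE 0.158) and -0.01 (SE 0.0995). No call in OCI-AML3 held under every setting: MX1 was lost without DMSO replicate 1 (adjusted p = 0.0667) or 2 (0.0962), and IFITM3 without AC220 replicate 2 (0.0979) or 3 (0.144) or DMSO replicate 1 (0.0775) or 2 (0.202). IFI6 was not called (log2 fold change -0.24, adjusted p = 0.065) but passed as lower under 9 of 20 settings, among them DESeq2 (0.0296), limma-voom (0.05), the OCI-AML3 libraries alone (0.0433) and without any 1 of the 3 MV4-11 AC220 libraries (0.0224, 0.0475 and 0.0328). HERC5 was lost under 11 of 20 settings, among them without OCI-AML3 AC220 replicate 2 (0.145) or 3 (0.292), OCI-AML3 DMSO replicate 1 (0.263) or 2 (0.189), MV4-11 AC220 replicate 3 (0.051) or any of the 3 MV4-11 DMSO libraries (0.0505, 0.0606 and 0.0577).

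**Figure D4:**
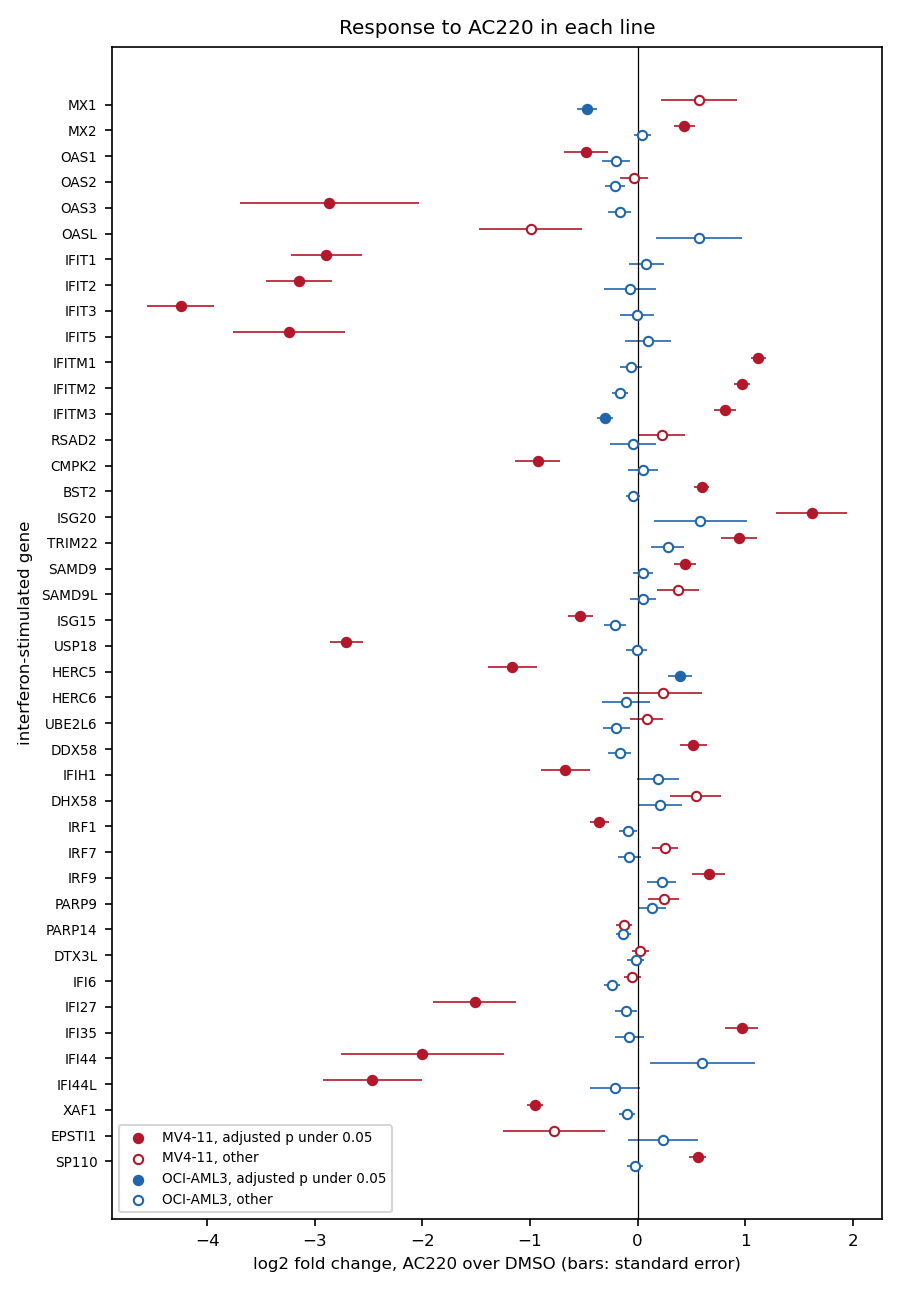
Log2 fold change of each gene under AC220 in MV4-11 and in OCI-AML3, with bars of 1 SE, genes grouped by role and filled points for those that passed the test. In MV4-11 the values run between -4.25 for IFIT3 and 1.62 for ISG20, while the OCI-AML3 values lie near 0.

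The difference between the lines' responses was tested as an interaction. It passed for 25 of the 42 genes (59.5%, beside 46.7% of all tested genes), with 11 more positive in MV4-11 and 14 more negative, where 23% and 23.7% of all genes were. At a 2-fold difference or more, 5 were positive and 11 negative, where 8.51% and 9.94% of all genes were. Of the 28 genes called in MV4-11, 23 had a called difference, 13 that fell and 10 that rose. The 5 without one were OAS1, ISG20, ISG15, IRF1 and IRF9. The IFIT genes had the most negative values, -4.25 for IFIT3 (SE 0.366, adjusted p = 1.58e-07), -3.34 for IFIT5 (SE 0.571, adjusted p = 1.84e-05), -3.08 for IFIT2 (SE 0.401, adjusted p = 2.48e-07) and -2.97 for IFIT1 (SE 0.374, adjusted p = 1.37e-07). OAS3 followed at -2.70 (SE 0.851, adjusted p = 0.0113), which was lost without MV4-11 AC220 replicate 1 (adjusted p = 0.0759) or 2 (0.0529).

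On the positive side, IFITM1, IFITM2 and IFITM3 had differences of 1.18 (SE 0.123), 1.14 (SE 0.104) and 1.12 (SE 0.132), with adjusted p of 3.74e-09, 4.53e-10 and 4.71e-08. IFI35 had 1.04 (SE 0.207, adjusted p = 1.3e-04). MX1 and OASL had a called difference but no called response in MV4-11, at 1.04 (SE 0.366, adjusted p = 0.022) and -1.57 (SE 0.624, adjusted p = 0.0415). The call for OASL was lost under 10 of 19 settings, DESeq2 (adjusted p = 0.0685) and 7 left-out libraries among them (0.0529 to 0.205). For MX1 the call was lost without MV4-11 AC220 replicate 2 (adjusted p = 0.0539) or 3 (0.127) or MV4-11 DMSO replicate 2 (0.0644), and with limma-voom (0.0914). The comparison of the lines under DMSO and the response comparisons share DMSO libraries, so their values are set side by side with no measure of likeness. IFIT2, for instance, was higher in MV4-11 under DMSO (0.77) and fell there under AC220 (-3.15), whereas IFIT3 was lower in MV4-11 under DMSO (-1.71) and fell further (-4.25).

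Interferons themselves were close to undetected. Of 21 interferon genes in the table, IFNB1 alone had counts, 2 in OCI-AML3 AC220 and 1 in MV4-11 DMSO over the 3 libraries of each group. A count of 0 allows up to 3 counts in a library, or 0.177 to 0.276 CPM, and secreted protein was not measured. Of the 10 receptor, JAK and STAT genes tested outside the 42, 6 rose and 1 fell in MV4-11 under AC220, beside the 31.5% and 26.9% of all tested genes. STAT2 had 70.3, 79.7 and 80.7 CPM in MV4-11 AC220, against 30.8, 31.9 and 32.7 CPM in MV4-11 DMSO (log2 fold change 1.27, SE 0.0944, adjusted p = 1.52e-12). The RNA of both STAT2 and IRF9, whose proteins meet in ISGF3, rose, and the proteins were not measured. JAK2 and JAK1 rose by 1.04 and 0.91, and IFNGR2, a chain of the interferon gamma receptor, fell by 1.24 on the log2 scale. In OCI-AML3, 0 of the 10 passed the test under AC220, with 0 at an unadjusted p under 0.05 in edgeR's quasi-likelihood test. Of all tested genes, 3.95% passed there, so a count of 0 passing in so short a list is near that share. An unadjusted p under 0.05 in the same test was reached there by 2574 of all 12392 tested genes. Between the lines under DMSO, STAT2 did not pass the test (log2 difference 0.19, SE 0.0985, adjusted p = 0.0963).

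A further list of 45 interferon-induced genes outside the 42, of which 42 were tested, had 21 genes that rose, 7 that fell and 14 that did not pass the test in MV4-11 under AC220 (median log2 fold change 0.25). The shares of all tested genes were 31.5% and 26.9%, and 58.3% in either direction, near the 28 of 42 called here. TDRD7, PARP10 and SAMHD1, the last a phosphohydrolase that depletes nucleotides, rose by 2.92, 1.90 and 1.78. GBP5, a guanylate-binding protein, had 0.683, 1.4 and 0.363 CPM in MV4-11 AC220, against 7.94, 8.15 and 6.56 CPM in MV4-11 DMSO (log2 fold change -3.22). DDX60 and NT5C3A fell by 0.97 and 0.89 on the log2 scale. In OCI-AML3, APOBEC3G and TRAFD1 rose (0.78 and 0.49) and 0 fell, where 3.44% of all tested genes rose and 0.508% fell. Under DMSO, 26 of these 42 genes were lower and 9 higher in MV4-11, with a median log2 difference of -0.58, where 33.4% of all tested genes were lower and 32.1% higher.

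The next 3 lists are short, and their counts in MV4-11 stand beside 31.5% of all tested genes that rose and 26.9% that fell. Of 5 other interferon regulatory factors tested, IRF5, IRF3 and IRF2 rose in MV4-11 under AC220, by 1.30, 0.38 and 0.36, and IRF5 also rose in OCI-AML3 (0.59). Of 10 tested genes of nucleic acid sensing and its adaptors, 5 rose in MV4-11 and 0 fell, among them MYD88 (0.94), TMEM173, which encodes STING (0.81), and TICAM1 (0.54). Of 10 negative regulators of the pathway, 4 rose in MV4-11, led by PIAS3 (0.88), PTPN2 (0.86) and TRIM24 (0.38), and CISH, a suppressor of cytokine signalling, fell (-0.58). In OCI-AML3 the sole call among these last 2 lists was PIAS1, which rose (0.57), where 3.95% of all tested genes were called.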

How the data were processed

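RNA was measured in 12 libraries of MV4-11 and OCI-AML3 made with the Lexogen QuantSeq 3′ kit, per the labels' protocols. Per the submitters' processing notes, the tools were HISAT2 2.0.4, featureCounts and Subread 2.0.0, cutadapt 1.9.1, bcl2fastq 2.17.1.14, limma 3.42.2 in R 3.6.1, and FastQC 0.11.6, with the build hg19. Annotation, strand setting and handling of reads with several positions are not given in the sources used here, so antisense, overlapping and near-identical genes are uncertain. The authors deposited raw counts per gene, which were used for the results, and a table of log2 normalised values, which was used in 1 alternative and holds 41 of the 42 genes (IFI44 has no row). A row without a gene name was left out (0.00343% to 0.00503% of counts).

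Counts were tested with edgeR 4.0.16 in R 4.3.3 (filterByExpr with a minimum count of 10, TMM, robust quasi-likelihood F test, 1 mean per group over 12 libraries, Benjamini-Hochberg adjustment over all 12392 tested genes at 0.05), after a test on simulated data. CPM is relative to the other transcripts of the library. A fold is the ratio of mean CPM, and the SE is the log2 fold change divided by the square root of F. Fits with DESeq2 1.42.0 and limma 3.58.1, other scalings, filters and thresholds, each line pair alone, a replicate block and each library left out were alternatives. The 42 genes, the other lists and the alternatives were chosen with earlier results of these data known. Full statistics are given for the genes called with the largest absolute log2 fold change, up to 8 in each direction in MV4-11 and up to 5 in the other comparisons, and for ISG15, MX1, IFIT1, RSAD2, USP18, IRF1, IRF7, IRF9 and STAT2, and 1 further gene that is not reported here. Outside the 42, up to 3 called genes of a list are named in each direction, and any that make up a count of 3 or fewer. Other named values illustrate a role or a neighbour and were chosen after they were seen. IKBKE and PECAM1 were not analysed here. Promoter sequences come from RefSeq GRCh38.p14, another build than that of the reads, and were joined by gene symbol alone. No pair of replicates was identical, and counts of replicates differed by more than sampling noise (chi-square per degree of freedom 2.79 to 10.6). No column of another sample was present.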

Additional observations from a re-analysis of the deposited data

Results flagged for a closer look

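The response to AC220 differed between the lines by the interaction test in 25 of the 42 genes. The values, as the log2 fold change in MV4-11 minus that in OCI-AML3, are given for the genes with the largest differences and for USP18. They were -4.25 for IFIT3, -3.34 for IFIT5, -3.08 for IFIT2, -2.97 for IFIT1, -2.70 for OAS3 and -2.70 for USP18. In the other direction they were 1.18 for IFITM1, 1.14 for IFITM2, 1.12 for IFITM3, 1.04 for IFI35 and 1.04 for MX1. For MX1 the response was 0.57 in MV4-11, which did not pass the test, and -0.47 in OCI-AML3, which did. For OAS3 the MV4-11 value rests on 2 counts in MV4-11 AC220 and 23 in MV4-11 DMSO. The 46.7% of all tested genes with a called difference is the background for the 25.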

How the results depend on the processing

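Thresholds apart, up to 20 settings were tried. No gene changed direction among called values under any alternative. In MV4-11, 25 of the 28 calls held under every one of these in which the gene was tested (12 that rose and 13 that fell), and all 36 calls between the lines under DMSO held. Of the 25 called differences between responses, 17 held under all 19 settings, all but those of OAS3, MX1, IFI27, IFI44, IFIH1, OASL, SAMD9 and TRIM22, and in OCI-AML3 0 of 3 did. Requiring at least 2-fold left 12 genes in MV4-11, 0 in OCI-AML3, 16 in the difference between responses and 32 of the 36 between the lines. The shares of all tested genes were 18.5%, 0.218%, 18.5% and 27.2%. In OCI-AML3, 7 of the 42 had an unadjusted p under 0.05 in edgeR's test, beside 2574 of all 12392 tested genes. At an adjusted p under 0.01, 1 gene was called in OCI-AML3, beside 0.379% of all tested genes. With limma on the deposited normalised values OCI-AML3 had 0 (5 at an unadjusted p under 0.05, and 0.00903% of all tested genes called), against 3 with DESeq2 (MX1, IFITM3 and IFI6, all lower, with HERC5 lost at an adjusted p of 0.0785). DESeq2 called 7.84% of all tested genes in OCI-AML3. Leaving out 1 library at a time gave 26 to 29 genes in MV4-11, 0 to 4 in OCI-AML3, 21 to 26 in the difference between responses and 36 to 38 between the lines. The shares of all tested genes ran from 52.6% to 58.7%, 0.103% to 9.07%, 42.1% to 48.9% and 60% to 67.2%. In OCI-AML3 the count was 0 without DMSO replicate 1 (7 at an unadjusted p under 0.05) or DMSO replicate 2 (4), and 1 without AC220 replicate 2 or 3. Calls were lost over all tested genes too, with 0.103%, 0.119%, 0.92% and 0.175% called in these fits, in the order named, beside 3.95% with all libraries. Whether the replicate numbers pair the libraries was not tested. Deviations from the group mean in same-numbered libraries correlated at -0.12, -0.0936 and -0.0803 in MV4-11, where libraries of different number gave -0.0191 to 0.113. In OCI-AML3 the same-numbered values were 0.0843, 0.0494 and 0.18, and the others -0.135 to 0.061. Between the lines under DMSO the same-numbered values were 0.0428, -0.0182 and 0.0598, and the others -0.0805 to 0.044. With the replicate number as a block, 30 genes were called in MV4-11, 4 in OCI-AML3 (IFI6 added, adjusted p = 0.0194), 25 in the difference between responses and 36 between the lines. The shares of all tested genes with the block were 58.2%, 6.17%, 46.6% and 64.6%, where OCI-AML3 had 3.95% without it. Depth limits IFIT1, IFIT2, IFIT3, IFIT5, IFI27, IFI44, IFI44L, OAS3, OASL, MX1, HERC6 and EPSTI1 in MV4-11, where at least 1 library held fewer than 10 counts. The causes were not tested.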

Other observations

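Many of the 42 genes are neighbours, with no other protein-coding gene between them in RefSeq GRCh38.p14. Neighbours did not always share a call in MV4-11 under AC220, though some pairs with different calls had close values. On chromosome 12, OAS3 fell (log2 fold change -2.87) and OAS1 fell (-0.48), while OAS2 had 13.4, 8.65 and 9.89 CPM in MV4-11 AC220 and 9.97, 12.3 and 10.9 CPM in MV4-11 DMSO (-0.04, not called). On chromosome 21, MX2 rose (0.44), and MX1 had a value of the same sign (0.57) that did not pass the test. MX1 was sparse, with 28 counts over the MV4-11 AC220 libraries and 26 over the MV4-11 DMSO libraries. On chromosome 2, CMPK2 fell (-0.93) and RSAD2 did not pass the test (0.22). On chromosome 1, IFI44L and IFI44 both fell (-2.46 and -2.00), and on chromosome 11 IFITM1, IFITM2 and IFITM3 all rose. The neighbours IFIT2 and IFIT3 on chromosome 10 both fell, as did IFIT1 and IFIT5. On chromosome 7, SAMD9 rose (0.44) and SAMD9L, at 0.38, did not pass the test. On chromosome 4, HERC5 fell (-1.17) and HERC6 did not pass the test (0.23). No difference between neighbours was tested.

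The number of genes with a low mean level also differed between groups. In MV4-11 AC220, 11 of the 42 had a mean under 1 CPM, against 3 in MV4-11 DMSO, and in OCI-AML3 AC220 0 did, against 1 in OCI-AML3 DMSO. The most abundant of the 42 was IFITM2 in both MV4-11 groups (1420 CPM in MV4-11 AC220 and 726 CPM in MV4-11 DMSO) and IFI6 in both OCI-AML3 groups (321 CPM in OCI-AML3 AC220 and 379 CPM in OCI-AML3 DMSO). IFI6 itself averaged 70.9 ± 8.11 CPM in MV4-11 AC220 and 73.3 ± 3.27 CPM in MV4-11 DMSO (SD, n = 3 each).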
